A study of Arabidopsis thaliana with 22 samples.

Results

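Messenger RNA levels of 41 heat shock chaperone genes of Arabidopsis thaliana were compared between roots labelled as the myb67 mutant and wild-type roots. The genes were listed by family, with earlier results of these data known, and all 41 had a row among the 33323 genes of the deposited count table. The list held 13 small heat shock proteins (small HSPs), 8 HSP70 proteins including the 3 BiP genes, 7 HSP90 proteins, 3 ClpB/HSP101 disaggregases, 1 HSP60 chaperonin and 9 genes grouped as co-chaperones. Of these 9, MBF1C is a transcriptional coactivator. By the known location of their proteins, 27 were placed in the cytosol, MBF1C among them, 5 in the endoplasmic reticulum (ER), 5 in mitochondria, 3 in plastids and 1 in peroxisomes. Heat shock factors, the transcription factors of the response, were not part of the list. After the filter on low counts, 36 of the 41 genes could be tested, among 21683 genes in all.

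The tested line carried the mutant allele myb67-1, in the Col-0 background, of MYB67, which encodes an R2R3 MYB transcription factor, and the other group was Col-0 itself (WT). Seedlings of both were sown together on agarose plates of Murashige and Skoog salts, received no treatment and were 14 days old. Each library came from about 40 pooled seedlings, from the uppermost 1.5 cm of the primary root without its lateral roots, and is a biological replicate per the labels. Experiment 1 had 6 libraries labelled myb67 and 6 WT libraries, and experiment 2 had 5 and 5. MYB67 itself was higher in the libraries labelled myb67, at 11.54 ± 1.67 CPM against 6.54 ± 0.411 CPM in WT libraries of experiment 1 (SD, n = 6 each) and at 17.99 ± 3.68 CPM against 10.6 ± 2.80 CPM in experiment 2 (SD, n = 5 each). The labels do not say what the allele does to the transcript, so every direction given here is that of the libraries labelled myb67.

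Total counts ran from 3705515 to 17727642 per library in experiment 1 and from 23190477 to 32091009 in experiment 2. WT replicate 1 of experiment 1, the library of fewest counts, stood apart. A single ribosomal RNA gene held 27.7% of its counts, against 0.010% to 1.75% in the other 21 libraries. Without it edgeR called 7 chaperone genes higher over both experiments, against 0.83% of all genes, and 7 in experiment 1, against 0.396%. Both counts include the small HSP gene HSP17.6A, which in the main fit passed the low-count filter only through myb67-labelled libraries. In experiment 1 it was the gene added to those called with every library. The summed level of 14 photosynthesis genes, markers of shoot tissue, was 283.2 to 378.2 CPM in the myb67-labelled libraries of experiment 1 and 361.5 to 1609 CPM in its WT libraries, of which replicates 3 and 6 were the high ones. In experiment 2 the sum was 2046 to 2858 CPM in myb67-labelled libraries and 1657 to 2456 CPM in WT libraries. Of the 14 genes, 12 were at 0 in no library of either experiment, and RBCS1B was at 0 in 1 and RBCS2B in 4. The 2 root hair markers EXPA7 and COBL9 summed to 73.7 to 128.6 CPM in experiment 1 and to 1.64 to 13.7 CPM in experiment 2. The 2 experiments thus differed in the RNA levels of these markers, as they did in total counts, and tissue composition was not measured. In bulk roots, fewer cells that use a gene and less RNA per cell cannot be told apart.

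Molecular chaperones bind unfolded or newly made proteins. Small HSPs hold unfolding proteins in a soluble state without using ATP, HSP70 and its J-domain partners fold or hand on clients in cycles driven by ATP, HSP90 matures signalling proteins and receptors, HSP60 encloses proteins in a chamber, and ClpB/HSP101 pulls proteins out of aggregates. Some of these genes are housekeeping genes of every cell, and others are almost silent until heat shock factors bind heat shock elements in their promoters. Here 25 of the 41 genes are known as heat induced, and the other 16 are mainly constitutive, developmentally controlled or induced by ER stress.

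In the libraries labelled myb67, 7 of the 36 tested chaperone genes were called higher over both experiments and 0 lower, at a Benjamini-Hochberg adjusted p under 0.05 in the edgeR quasi-likelihood test with the experiment as a term. Over all genes tested, 0.816% rose and 0.687% fell by the same rule, 1.5% in all. HSP17.6A, a cytosolic small HSP, entered the test only through the group where it was high: 5 myb67-labelled libraries and 0 WT libraries reached the filter's 0.57 CPM. Its call is given as a value only, and without it 6 of 35 genes rose and 0 fell. These 6 were the cytosolic small HSP HSP17.6B, the mitochondrial small HSP HSP23.5, the cytosolic HSP70 genes HSP70-2 and HSP70-4, the cytosolic HSP90 gene HSP90.1 and the cytosolic disaggregase HSP101. All but HSP70-2 are known as heat induced. Of the 24 other tested cytosolic genes 5 rose, of the 4 mitochondrial genes 1, and 0 of the 3 in the ER, 0 of the 3 in plastids and 0 of the 1 in peroxisomes. The log2 fold change was above 0 for 31 of the 35 genes, against 50.8% of all genes, with a median of 0.09 for the chaperones and 0.0013 for all genes.

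**Figure D1:**
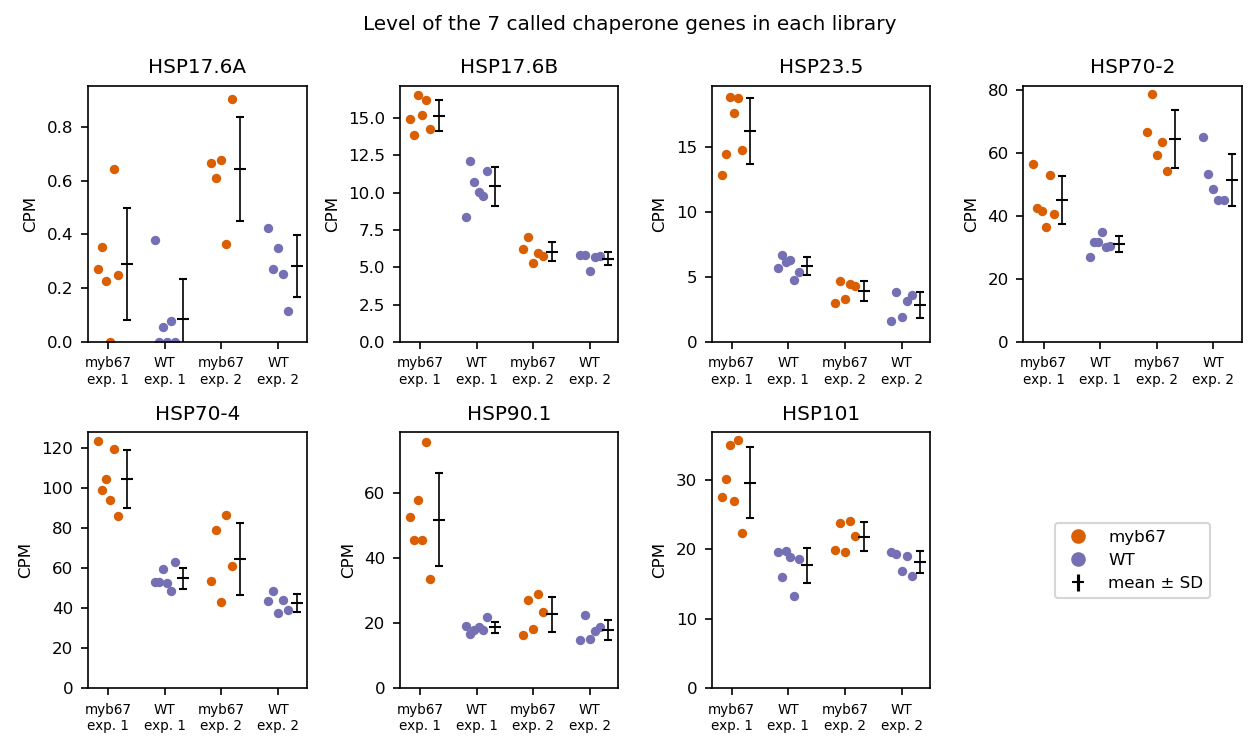
Level in each library of the 7 chaperone genes called higher over both experiments, in CPM on linear axes that start at 0. Orange points are libraries labelled myb67, violet points WT libraries, and bars the mean ± SD. In experiment 1 the groups do not overlap for any of the 7 but HSP17.6A, and in experiment 2 they overlap for all but HSP101.

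HSP90.1 (AT5G52640, chr5:21352557-21355147, plus strand, TAIR10.1) encodes the heat-induced cytosolic HSP90. In experiment 1 its lowest, median and highest level was 33.6, 49.2 and 75.7 CPM in myb67-labelled libraries and 16.6, 18.4 and 21.9 CPM in WT libraries. The groups did not overlap, and the lowest myb67-labelled library was replicate 6. In experiment 2 the 5 myb67-labelled libraries had 16.3, 27.1, 18.2, 28.9 and 23.4 CPM, and the 5 WT libraries 14.9, 22.5, 15.2, 17.7 and 18.9 CPM, in the order of their replicate numbers. There the groups overlapped, and replicates 1 and 3 were low in both genotypes. HSP90.1 was 2.79-fold higher in experiment 1 (log2 fold change 1.48, SE 0.17; edgeR adjusted p = 1.1e-05) and 1.28-fold higher in experiment 2, which did not pass the test (0.36, SE 0.17; edgeR adjusted p = 0.602). For both together it was 0.93 on the log2 scale (SE 0.17; edgeR adjusted p = 0.0016). The other 3 cytosolic HSP90 genes, the constitutive HSP90.2, HSP90.3 and HSP90.4, had log2 fold changes of 0.13, 0.09 and 0.01 and did not pass. They share 18.7% to 23.9% of their 50-base stretches with each other or another gene, so their counts cannot be fully separated, while HSP90.1 shares none.

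HSP70-4 (AT3G12580, chr3:3991117-3993886, minus strand) encodes a heat-induced cytosolic HSP70. In experiment 1 it had 86.3, 101.9 and 123.4 CPM as lowest, median and highest level in myb67-labelled libraries and 48.4, 53.1 and 62.9 CPM in WT libraries. In experiment 2 the levels were 53.4, 79.1, 43.3, 86.6 and 60.9 CPM in myb67-labelled replicates 1 to 5, and 43.5, 48.6, 37.5, 44.2 and 39.2 CPM in WT replicates 1 to 5. Only replicate 3 of the myb67-labelled libraries lay within the WT range. It was the single chaperone gene called in each experiment, with log2 fold changes of 0.93 (SE 0.13; edgeR adjusted p = 0.00022) and 0.60 (SE 0.14; edgeR adjusted p = 0.026), and 0.77 over both (SE 0.10; edgeR adjusted p = 2.7e-05). The gene lies 15 tested genes away from MYB67 on chromosome 3, and the part of this in the result was not tested. In experiment 2 the call rested on several libraries: without myb67-labelled replicate 2 or 4, or WT replicate 3, 4 or 5, the edgeR adjusted p was 0.054 to 0.10. It was 0.052 without WT replicate 1 and myb67-labelled replicates 3 and 4 of experiment 1, the libraries of fewest counts, and 0.22 with experiment 2 fitted on its own.

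The 250 bases upstream of HSP70-4 are shown as an example without an exact pair of heat shock element units, which 11 of the 41 genes held. Those of the cytosolic small HSP gene HSP17.4, which did not pass the test, are shown because they hold the most. A heat shock element is built from inverted GAA units, and capitals mark each match to GAANNTTC or TTCNNGAA. The sequences are read from the RefSeq genome and annotation of TAIR10.1, 5′ to 3′ on the strand of the gene, and neither overlaps another annotated gene.
HSP70-4, chr3:3993887-3994136, minus strand: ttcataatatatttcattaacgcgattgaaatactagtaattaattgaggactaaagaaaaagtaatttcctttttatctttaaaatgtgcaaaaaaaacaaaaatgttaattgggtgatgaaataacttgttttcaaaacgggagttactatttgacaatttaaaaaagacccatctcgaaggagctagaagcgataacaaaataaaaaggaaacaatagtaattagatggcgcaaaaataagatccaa
HSP17.4, chr3:16984868-16985117, minus strand: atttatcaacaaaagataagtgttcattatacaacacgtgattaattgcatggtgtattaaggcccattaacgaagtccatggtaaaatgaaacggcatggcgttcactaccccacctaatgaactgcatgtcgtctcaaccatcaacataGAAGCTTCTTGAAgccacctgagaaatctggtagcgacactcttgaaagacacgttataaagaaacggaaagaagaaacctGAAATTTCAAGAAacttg

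HSP23.5 (AT5G51440, chr5:20891163-20892416, plus strand) encodes a small HSP of mitochondria. Its lowest, median and highest level in experiment 1 was 12.8, 16.2 and 18.8 CPM in myb67-labelled libraries and 4.79, 5.94 and 6.65 CPM in WT libraries. The groups were well apart there. In experiment 2 it had 2.96, 4.72, 3.30, 4.42 and 4.30 CPM in myb67-labelled replicates 1 to 5 and 1.57, 3.83, 1.92, 3.16 and 3.61 CPM in WT replicates 1 to 5. Replicates 1 and 3 were again the low ones of both genotypes, and the groups overlapped. The gene was 2.74-fold higher in experiment 1 (log2 fold change 1.45, SE 0.18; edgeR adjusted p = 4.1e-05) and 1.404-fold higher in experiment 2, short of the threshold (0.49, SE 0.20; edgeR adjusted p = 0.41). Same-numbered libraries of experiment 2 deviated together, and with their number as a block HSP23.5 passed there too (0.52; edgeR adjusted p = 0.022), higher in the myb67-labelled library of 5 of 5 pairs. Its mitochondrial relative HSP23.6 had 0 to 12 counts per library and did not pass the filter on low counts.

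The cytosolic small HSP genes lay at low levels. HSP17.6B (AT2G29500, chr2:12633065-12634120, minus strand) had 13.9, 15.1 and 16.6 CPM as lowest, median and highest level in myb67-labelled libraries of experiment 1 and 8.38, 10.4 and 12.2 CPM in WT libraries, without overlap. In experiment 2 its levels were 6.25, 7.04, 5.29, 5.93 and 5.77 CPM in myb67-labelled replicates and 5.83, 5.82, 4.78, 5.67 and 5.76 CPM in WT replicates, which overlapped. The log2 fold change was 0.51 in experiment 1 (SE 0.09; edgeR adjusted p = 0.0024), 0.12 in experiment 2 (SE 0.09; edgeR adjusted p = 0.91) and 0.32 over both (SE 0.07; edgeR adjusted p = 0.018). Without the 3 libraries of fewest counts, all of experiment 1, the last of these missed the threshold (edgeR adjusted p = 0.077), as it did without the 2 WT libraries in which the photosynthesis genes were high (0.063).

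HSP17.6A (AT5G12030, chr5:3883957-3884838, minus strand) was near the limit of counting. It had 3, 4, 1, 0, 8 and 3 counts in myb67-labelled libraries of experiment 1 and 1, 0, 1, 0, 1 and 0 counts in WT libraries. In experiment 2 it had 18, 15, 16, 12 and 24 counts in myb67-labelled libraries and 13, 8, 10, 7 and 3 in WT libraries, so that 1 myb67-labelled library lay within the WT range. For both experiments together it stood at 1.44 on the log2 scale (SE 0.34; edgeR adjusted p = 0.023), and it passed in neither experiment alone (edgeR adjusted p = 0.098 in experiment 1 and 0.18 in experiment 2). The call was lost without replicate 5 of either genotype in experiment 2 (edgeR adjusted p = 0.064 and 0.063) and without the 2 WT libraries rich in photosynthesis RNA (0.056), and with the replicate number as a block in both experiments (0.076). Without myb67-labelled replicate 5 of experiment 1, or with a stricter filter on low counts, the gene did not enter the test at all. The other tested cytosolic small HSP genes did not pass over both experiments, with log2 fold changes of 0.59 for HSP17.6A-CI, 0.50 for HSP17.8, 0.29 for HSP15.4 and 0.15 for HSP17.4. HSP17.4 shares 61.5% of its 50-base stretches with genes on the opposite strand. Without knowledge of the strand used in counting, its reads cannot be told apart from theirs.

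Both of the called small HSP genes with a heat shock element match in their upstream 250 bases are shown as the 30 bases around it, with the match in capitals. The 250-base windows of both overlap an annotated neighbouring gene, and the coordinates are those of the printed bases in TAIR10.1.
HSP17.6A, chr5:3884842-3884871, minus strand: gatcaagacgtTTCTCGAAcgttagagaag
HSP23.5, chr5:20891058-20891087, plus strand: agaccacgcagTTCTAGAAccatccttaag

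Among the HSP70 genes, HSP70-2 (AT5G02490, chr5:550035-552827, minus strand), a constitutive cytosolic form, rose beside HSP70-4. It had 36.4, 41.9 and 56.3 CPM as lowest, median and highest level in myb67-labelled libraries of experiment 1 and 27.0, 31.0 and 34.8 CPM in WT libraries, without overlap. In experiment 2 it had 66.5, 78.6, 59.1, 63.3 and 54.3 CPM in myb67-labelled replicates and 65.0, 53.3, 48.5, 44.8 and 45.0 CPM in WT replicates, and WT replicate 1 lay among the myb67-labelled libraries. The log2 fold change was 0.53 in experiment 1 (SE 0.11; edgeR adjusted p = 0.022), 0.33 in experiment 2 (SE 0.11; edgeR adjusted p = 0.27) and 0.43 over both (SE 0.08; edgeR adjusted p = 0.0032). With the replicate block of experiment 2 it passed there (0.33; edgeR adjusted p = 0.042). In experiment 1 the call was lost without myb67-labelled replicate 1 or 5 or WT replicate 3 or 5, with an edgeR adjusted p of 0.050 to 0.077, without WT replicates 3 and 6 together (0.14), and in limma-voom (0.062). HSC70-1, the major constitutive HSP70 of the cytosol, had a log2 fold change of 0.01 with a limma-voom 95% interval of -0.06 to 0.09. HSP70-2 and HSC70-1 share no 50-base stretch with another gene. HSP70-3, which shares 16.2% of its 50-base stretches with a gene on the opposite strand, had a log2 fold change of 0.22 (edgeR adjusted p = 0.21, and 0.026 with the replicate block of experiment 2), and HSP70B, another heat-induced form, of 0.01.

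HSP101 (AT1G74310, chr1:27936508-27940369, minus strand), the cytosolic disaggregase needed for acquired thermotolerance, had 22.3, 28.8 and 35.7 CPM as lowest, median and highest level in myb67-labelled libraries of experiment 1 and 13.3, 18.7 and 19.8 CPM in WT libraries. In experiment 2 it had 19.8, 23.7, 19.6, 24 and 21.9 CPM in myb67-labelled replicates and 19.6, 19.4, 16.9, 19.04 and 16.1 CPM in WT replicates. It was the only one of the 36 genes whose groups did not overlap in either experiment, against 0.161% of all genes, and in experiment 2 the lowest myb67-labelled library stood at 19.59 CPM and the highest WT library at 19.56 CPM. The log2 fold change was 0.75 in experiment 1 (SE 0.11; edgeR adjusted p = 0.00044), 0.26 in experiment 2 (SE 0.11; edgeR adjusted p = 0.48) and 0.50 over both (SE 0.09; edgeR adjusted p = 0.0022). An annotated gene on the opposite strand overlaps HSP101 and shares 1.6% of its 50-base stretches. The organellar disaggregases did not pass, with log2 fold changes of -0.07 for CLPB3 of plastids and 0.0054 for CLPB4 of mitochondria. CLPB3 was nevertheless the 1 gene whose myb67-labelled libraries all lay below the WT libraries of experiment 1, against 0.544% of all genes, at 34.0 to 37.7 CPM against 38.6 to 39.8 CPM (log2 fold change -0.15; edgeR adjusted p = 0.11).

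Chaperones of the ER were abundant and close to equal. BIP1 had 504.6 ± 29.5 CPM in myb67-labelled libraries and 508.0 ± 47.9 CPM in WT libraries of experiment 1 (SD, n = 6 each). Its close copy BIP2 had 532.9 ± 39.0 and 531.6 ± 47.6 CPM. HSP90.7, the HSP90 of the ER, had 750.5 ± 32.0 and 768.7 ± 61.2 CPM. In experiment 2 BIP1 had 287.2 ± 53.9 CPM in myb67-labelled and 281.5 ± 40.6 CPM in WT libraries (SD, n = 5 each), BIP2 233.1 ± 48.6 and 224.1 ± 36.3 CPM, and HSP90.7 641.7 ± 72.3 and 618.1 ± 91.03 CPM. Over both experiments the limma-voom 95% interval of the log2 fold change was -0.14 to 0.15 for BIP1, -0.13 to 0.18 for BIP2 and -0.11 to 0.13 for HSP90.7. BIP1 and BIP2 share 22.9% and 24.8% of their 50-base stretches, so how reads were split between them is uncertain. BIP3, which is induced by ER stress, had 0 to 12 counts per library, and the ER small HSP gene HSP22 had 0 to 11. Neither passed the filter on low counts. The HSP90.7 promoter held the single ER stress element match of the list, in capitals below, CCAAT and CCACG with 9 bases between them, which 0.31% of 27443 promoters of this length hold on either strand.
HSP90.7, chr4:12556059-12556088, minus strand: accttgctCCAATACAAAACTACCACGtgg

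**Figure D2:**
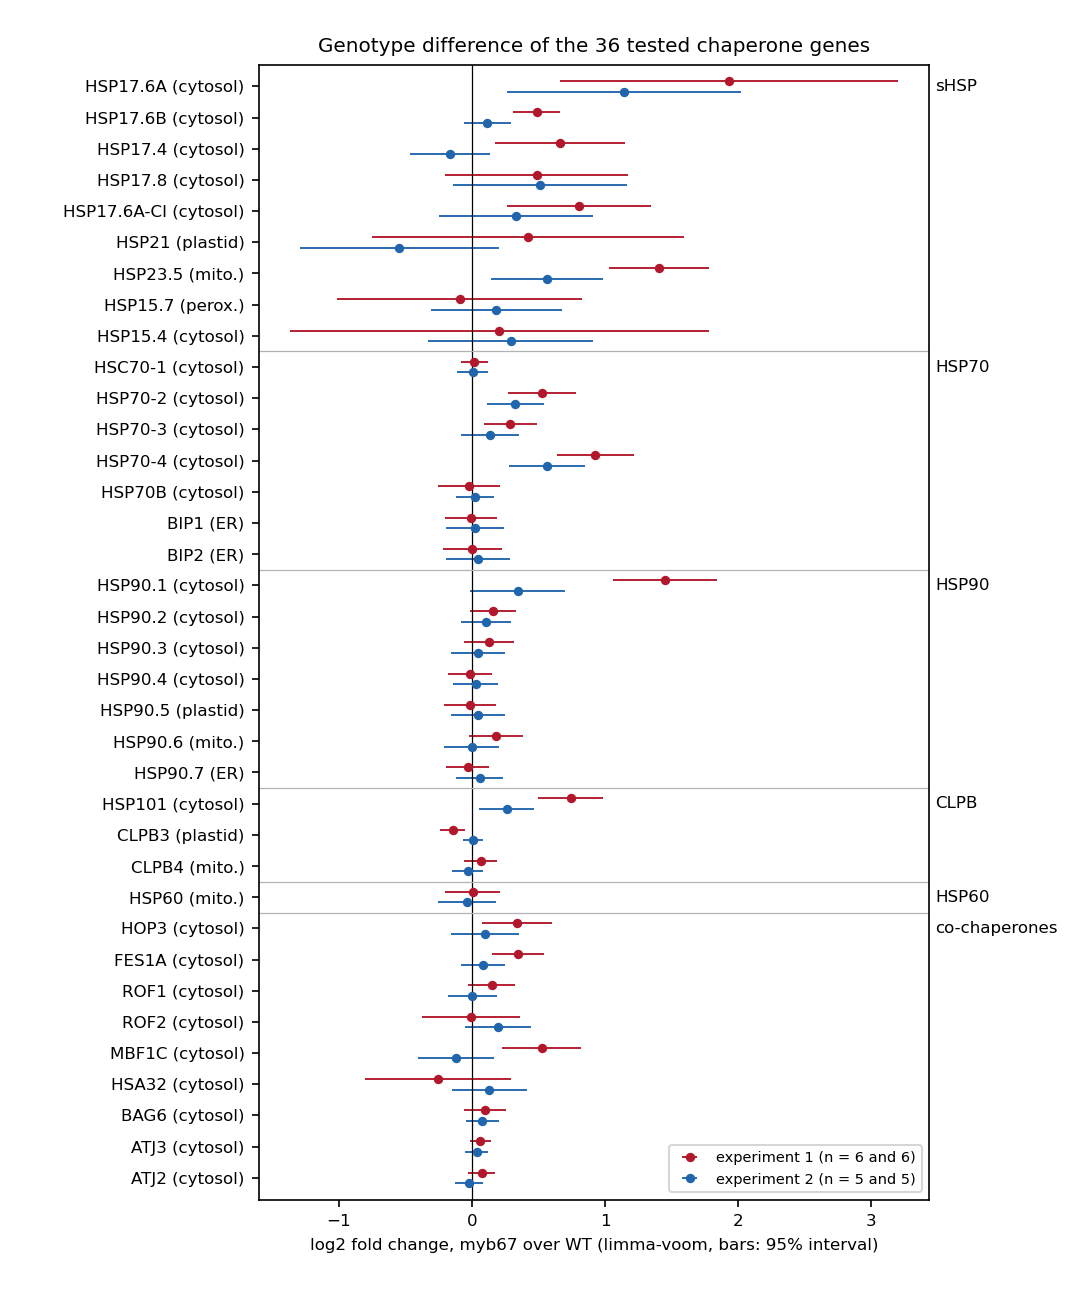
Log2 fold change, myb67-labelled over WT, of the 36 tested chaperone genes by family, estimated with limma-voom, with bars for the 95% interval. Red is experiment 1 (n = 6 and 6) and blue experiment 2 (n = 5 and 5). HSP23.5, HSP90.1, HSP70-4 and HSP101 stand to the right in experiment 1, and the ER genes and HSC70-1 lie close to 0 in both experiments.

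The mitochondrial chaperones other than HSP23.5 did not pass: HSP90.6 had a log2 fold change of 0.10, CLPB4 of 0.0054 and HSP60 of -0.01. Among plastid genes, HSP90.5 had 0.02 and the small HSP gene HSP21 had -0.37, the lowest value of the list, at 0 to 46 counts per library. The direction of HSP21 differed between the experiments. Its mean was 0.357 CPM in myb67-labelled and 0.227 CPM in WT libraries of experiment 1, and 0.568 against 0.913 CPM in experiment 2. The peroxisomal small HSP HSP15.7 had a log2 fold change of 0.13. None of the 9 genes grouped as cytosolic co-chaperones was called over both experiments. Their log2 fold changes ran from -0.05 for HSA32, a heat-induced protein needed for long-term thermotolerance, to 0.21 for HOP3, which links HSP70 to HSP90. At an unadjusted p under 0.05, edgeR gave 2 of the 9, HOP3 and the nucleotide exchange factor FES1A, against 7.31% of all genes.

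Levels between genes were compared as CPM per kilobase of annotated exon. HSC70-1 was the most abundant chaperone transcript in all 4 groups, at 1025 ± 75.7 in myb67-labelled and 1012 ± 55.4 in WT libraries of experiment 1 (SD, n = 6 each), 34.1% and 35.7% of the summed level of the 41 genes, and at 800.4 ± 34.1 and 796.3 ± 33.3 in experiment 2 (SD, n = 5 each). HSP90.7, HSP90.3 and the J-domain protein ATJ3 followed in the mean over groups. HSP70-4 ranked 15, HSP90.1 ranked 18, HSP17.6B ranked 22, HSP101 ranked 25 and HSP23.5 ranked 26. The 25 heat-induced genes summed to 287.7 ± 21.6 per kilobase in myb67-labelled libraries and 211.1 ± 18.3 in WT libraries of experiment 1 (SD, n = 6 each), which did not overlap (258.1 to 321.9 against 192.4 to 245.6). This sum includes the 5 heat-induced genes called higher in experiment 1, such as HSP70-4 (41.5 and 21.8) and HSP90.1 (24.7 and 8.91). It is thus not independent of those calls. Of the 21 heat-induced genes tested, 4 had a log2 fold change below 0 there. In experiment 2 they summed to 174.8 ± 18.9 and 159.8 ± 13.01 (SD, n = 5 each), and overlapped. The 16 other genes summed to 2720 ± 158.3 and 2623 ± 177.4 in experiment 1 and 1921 ± 167.4 and 1871 ± 123.0 in experiment 2, in each case within 1 SD of each other. By class and place, the 2 mitochondrial small HSPs summed to 14.7 ± 2.30 against 5.29 ± 0.597 per kilobase in experiment 1, and the cytosolic small HSPs had 22.9 ± 1.56 against 15.6 ± 1.16. HSP23.5 alone held 14.56 and 5.24 of the mitochondrial sums, and HSP17.6B 14.37 and 9.88 of the cytosolic ones. Both were called from these same libraries, so the sums mostly restate their calls. The ER HSP70 genes had 373.5 ± 24.2 against 374.3 ± 33.04. In experiment 2 the mitochondrial small HSPs had 3.63 ± 0.733 in myb67-labelled and 2.698 ± 0.826 in WT libraries, and the groups overlapped (2.66 to 4.27 against 1.79 to 3.53). The cytosolic small HSPs had 20.2 ± 4.26 and 17.36 ± 2.43 there, overlapping too, and the ER HSP70 genes 186.9 ± 36.8 and 181.6 ± 27.2. HSP15.4, which is not among the heat-induced genes, held 9.2 and 7.39 of these cytosolic sums.

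**Figure D3:**
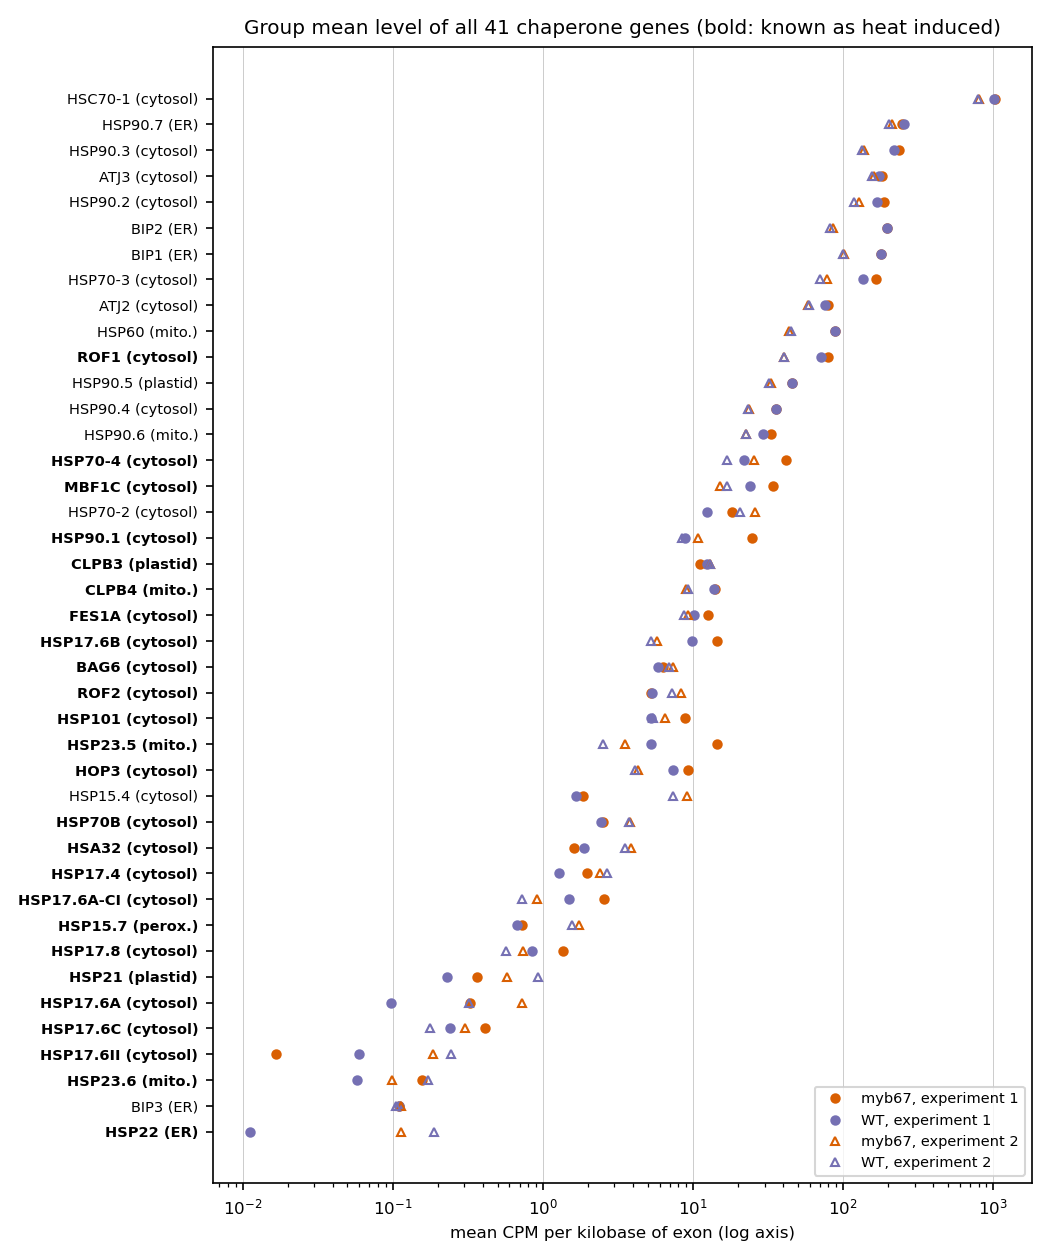
Mean level of all 41 chaperone genes in CPM per kilobase of exon, on a log axis, ordered by the mean over the 4 groups. Filled circles are experiment 1, open triangles experiment 2, orange libraries labelled myb67 and violet WT libraries, and a group mean of 0 (HSP22 in myb67-labelled libraries of experiment 1) is not drawn. HSC70-1 stands above the rest, and the heat-induced genes, in bold, fill most of the lower ranks.

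The 5 genes left untested in the main fit were HSP17.6II, HSP17.6C, HSP22, HSP23.6 and BIP3. HSP17.6II had 0 to 1 counts per myb67-labelled library and 0 to 2 per WT library in experiment 1, and 2 to 7 against 2 to 12 in experiment 2. HSP17.6C had 1 to 5 against 0.5 to 2 counts in experiment 1 and 3 to 11 against 1 to 8 in experiment 2. HSP22 had 0 counts in all 6 myb67-labelled libraries of experiment 1, and a count of 0 in a library allows up to 3. With no filter on low counts all 41 genes entered the edgeR fit over both experiments. It called the same 7 genes as the main fit (322 over all genes), and these 5 did not pass. At counts this low, that does not show equal levels.

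The experiments were then set side by side. In experiment 1, 6 of the 36 genes rose, against 0.314% of all genes, and in experiment 2 there was 1, against 0.623% (3 with the replicate block of that experiment). All myb67-labelled libraries lay above all WT libraries for 7 genes in experiment 1, against 0.53% of all genes. These were the 6 called ones and MBF1C, a heat-induced transcriptional coactivator with 34.6 to 50.2 against 23.1 to 34.2 CPM. MBF1C shares 12.2% of its 50-base stretches with genes on the opposite strand. In experiment 2 HSP101 alone did so, against 0.922% of all genes. The difference between the experiments' genotype effects was called for 0 of the 36 genes, against 0.0692% of all genes. At an unadjusted p under 0.05 edgeR gave 7, against 8.81% of all genes, and DESeq2 called 1, HSP90.1 (adjusted p = 0.0071, against 0.198% of all genes). HSP90.1 had the smallest p of the 36 in edgeR too, with a log2 difference of -1.13 (SE 0.24; edgeR adjusted p = 0.12), followed by HSP23.5 at -0.96 (SE 0.27; edgeR adjusted p = 0.32).

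With the replicate number of experiment 2 as a block, 8 genes were called higher over both experiments, against 1.1% of all genes, with HSP70-3 added. In experiment 1 also 8 rose, against 0.687%, with HSP70-3 (edgeR adjusted p = 0.036) and MBF1C (0.52; edgeR adjusted p = 0.0080) added. The block has no term for experiment 1, but the 2 experiments share the dispersion of this fit. Experiment 1 fitted on its own called 7, with MBF1C but not HSP70-3 added (180 over all genes, against 135 in the main fit). In experiment 2 the block gave 3, against 1.5%, namely HSP70-4, HSP70-2 and HSP23.5. The genotype effect was lower in experiment 2 than in experiment 1 for 3 genes, against 1.9% of all genes. These were HSP90.1 (-1.15; edgeR adjusted p = 0.0027), HSP23.5 (-0.93; edgeR adjusted p = 0.0054) and MBF1C (-0.65; edgeR adjusted p = 0.017). Each of the 7 genes called over both experiments was higher in the myb67-labelled library of all 5 same-numbered pairs of experiment 2, and no other tested chaperone gene was. Over all genes, 8.66% were higher in all 5 pairs, and the 7 were chosen partly on these libraries.

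**Figure D4:**
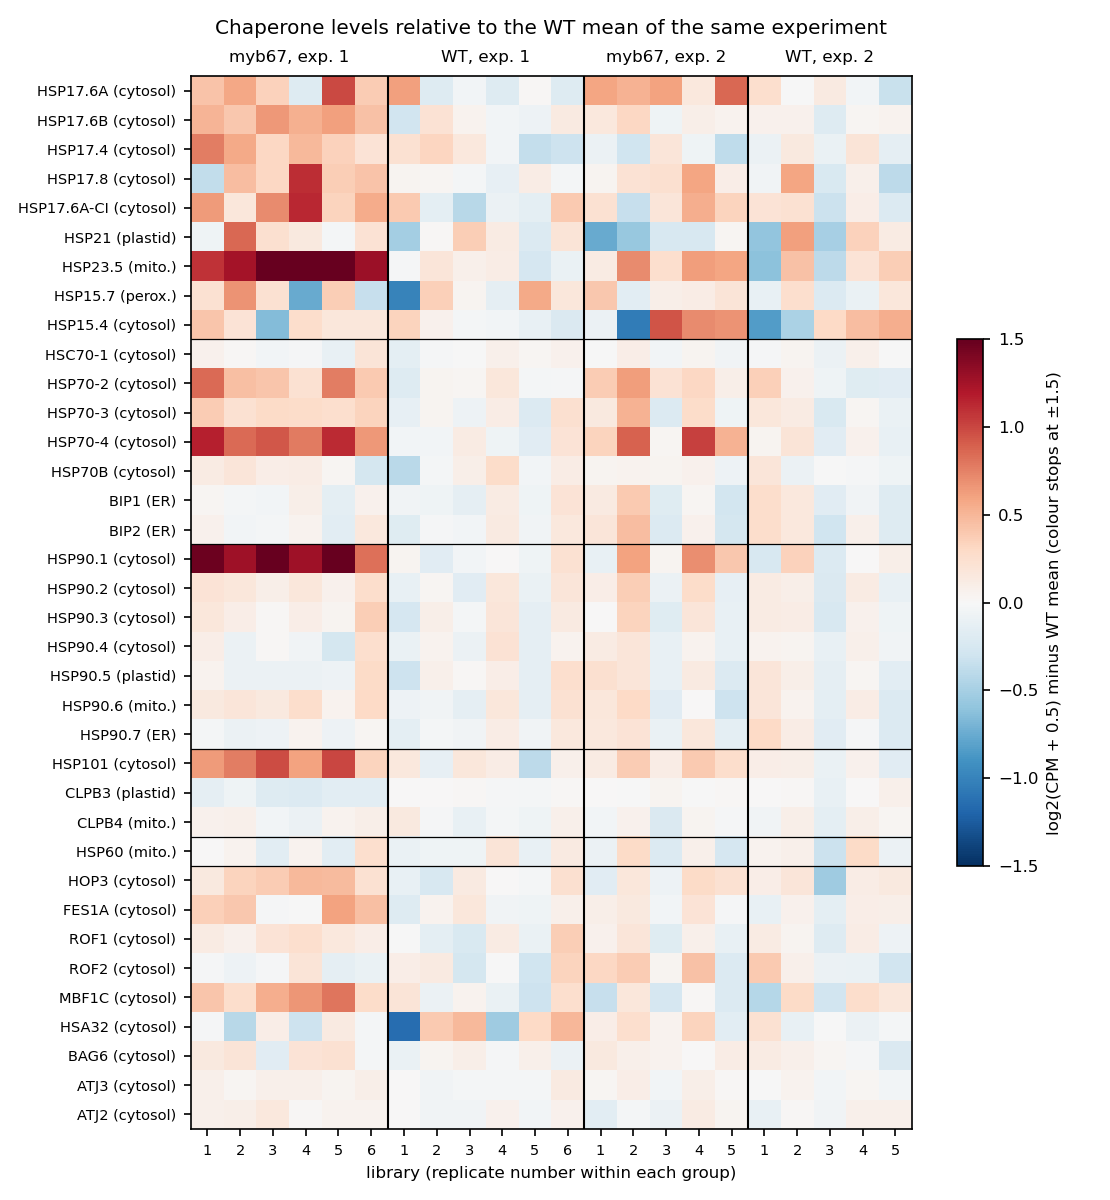
Level of the 36 tested chaperone genes (rows, by family) in each of the 22 libraries (columns), as log2(CPM + 0.5) minus the WT mean of the same experiment. Red is above and blue below that mean, and the colour stops at 1.5. The rows of HSP23.5, HSP90.1, HSP70-4 and HSP101 are red across the myb67-labelled libraries of experiment 1, and in experiment 2 HSP70-4 and HSP90.1 are reddest in replicates 2 and 4.

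Libraries of 1 group also varied together. Over 22 libraries, after subtraction of the group means of log2 CPM, the 6 pairs of HSP90.1, HSP70-4, HSP101 and HSP23.5 had a median Pearson r of 0.611 (0.326 to 0.764), and these 4 genes were picked after their values were seen. The 3 pairs of ER genes had 0.904 to 0.945. The 21 pairs of the 7 called genes had a median of 0.326 and the 406 pairs of uncalled genes 0.191. Points of 1 library share its depth and composition, so these are descriptions.

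The promoters were set beside the calls. In the 250 bases upstream of the annotated start, 11 of the 41 chaperone genes (26.8%) held GAANNTTC or TTCNNGAA, against 16.15% of 27443 promoters of protein-coding genes. Of the 25 heat-induced genes 10 held it (40.0%), and of the 16 others 1, the J-domain gene ATJ2. Among the 7 called genes 2 held it, and among the 29 tested genes that did not pass 8 did, 28.6% and 27.6%. The 2 are HSP23.5 and HSP17.6A, whose call is given as a value only. Without HSP17.6A, HSP23.5 alone remains among the called genes, so these shares are not compared further. The longer element of 3 alternating units, the shorter one followed by NNGAA or NNTTC, was found for HSP17.6C and HSP17.4, against 0.39% of promoters, on either strand. The window of HSP90.1 ends at its annotated coding start, since no leader is annotated for this gene, and so covers another stretch than those of the other genes. A match describes letters only, and its absence says nothing about binding.

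Companion genes of the same pathways were read from the same fit. Of 20 other cytosolic and organellar chaperones, such as plastid and mitochondrial HSC70 and chaperonin subunits, 0 were called over both experiments, and edgeR gave 1 at an unadjusted p under 0.05, against the same 7.31%. Their median log2 fold change was 0.02. Of 9 genes of ER folding and the unfolded protein response 1 rose over both experiments, against 0.816% of all genes. This was TIN1, a luminal ER protein induced by tunicamycin. It had 4.58 ± 0.881 CPM in myb67-labelled and 2.16 ± 0.551 CPM in WT libraries of experiment 1 (SD, n = 6 each) and 2.77 ± 0.687 against 2.03 ± 0.541 CPM in experiment 2 (SD, n = 5 each; log2 fold change over both 0.79, edgeR adjusted p = 0.0051). Of 10 tested heat shock factor genes 1 rose over both experiments, against the same 0.816%, and 0 were called in either experiment alone. The 1 gene was HSFA2, a heat-induced factor that sustains the heat response. It had 2.87 ± 0.915 CPM in myb67-labelled and 1.07 ± 0.723 CPM in WT libraries of experiment 1 (SD, n = 6 each). In experiment 2 it had 1.70 ± 0.246 against 0.828 ± 0.255 CPM (SD, n = 5 each), and its log2 fold change over both was 1.19 (SE 0.25; edgeR adjusted p = 0.0069). Of 4 other heat-induced genes tested 0 were called, by edgeR at an unadjusted p under 0.05 also 0.

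In experiment 1 the photosynthesis markers moved with the genotype, lower in myb67-labelled libraries for 14 of 14 genes (2 called), and their part in the chaperone results was not tested. Without the 2 WT libraries in which they were high, 5 chaperone genes were called higher in experiment 1, against 0.167% of all genes, namely HSP17.6B, HSP23.5, HSP70-4, HSP90.1 and HSP101. In experiment 2 these markers did not pass the test for any gene, and the 4 suberin markers of the root periderm and endodermis had 2 called higher and 0 lower. The authors' deposited table also gave 7 of the 41 genes an adjusted p under 0.05, all higher, against 417 of 26394 genes with an adjusted p. In the authors' deposited table the log2 fold change was 0.96 for HSP90.1, 0.78 for HSP70-4 and 1.014 for HSP23.5. It was made from the same libraries and is no independent measurement.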

How the data were processed

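The authors deposited expected counts per gene in steps of 0.5 for experiment 1 and raw counts for experiment 2, both not normalized. They also deposited a comparison with a log2 fold change and its standard error, an adjusted p-value and a mean signal per gene over scaled counts. Per the submitters' processing notes the tools were FastQC, Trimmomatic 0.39, STAR 2.7.10a, HOMER and DESeq2 1.40.1 and the build TAIR10. The handling of strand and of multi-mapping reads is not stated in these notes.

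Expected counts were rounded before fitting. Genes were kept by filterByExpr on the 4 groups (0.57 CPM in at least 5 libraries), scaled by TMM and fitted with edgeR 4.0.16 (quasi-likelihood F test, R 4.3.3), with experiment and genotype as terms, or with 4 group means for each experiment and their difference. Adjusted p is Benjamini-Hochberg over all 21683 genes. SE is the size of the log2 fold change divided by the root of its F statistic. CPM is TMM-scaled counts per 1e+06 counts. Intervals are from limma-voom 3.58.1. DESeq2 1.42.0, other scalings, filters and left-out libraries were alternatives. Exon lengths, 50-base stretches and promoters came from the RefSeq annotation of TAIR10.1, which holds all 41 genes. The fit was also run on simulated counts of independent libraries, which cannot test it where same-numbered libraries vary together, as in experiment 2. Replicate numbers pair libraries where same-numbered libraries correlate over 0.1 in every pair: 0.285 to 0.671 in experiment 2, -0.158 to 0.043 in experiment 1. In experiment 2 myb67-labelled replicate 5 correlated best with WT replicate 4, and replicates 1 to 4 with their own number. The pairing is thus inferred and not given by the labels. No replicates were duplicates (lowest chi-square per gene 2.19).

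Members and lists were chosen with earlier results of these data known. Genes given in every library are those called in a comparison; the others named are the highest and the most changed of each class and compartment, and those left untested.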

Additional observations from a re-analysis of the deposited data

Results flagged for a closer look

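The genotype effect differed between the experiments for 3 genes in the edgeR fit with the replicate block in experiment 2. As experiment 2 minus experiment 1, the log2 difference was -1.15 for HSP90.1, -0.93 for HSP23.5 and -0.65 for MBF1C. In that fit the log2 fold change of HSP90.1 was 1.49 in experiment 1 and 0.34 in experiment 2, and that of MBF1C 0.52 and -0.13. Without the block none of the 3 passed in edgeR.

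Of 28 groups of libraries looked at, 7 genes in 4 groups, 2 held a library apart from the rest, and chance gives about 1 in 20. HSP17.6A was at 0.381 CPM in WT replicate 1 of experiment 1, the highest of its group, which is 1 count in the library of fewest counts. HSP17.6B was at 4.78 CPM in WT replicate 3 of experiment 2, the lowest of its group.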

How the results depend on the processing

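Over both experiments the number of chaperone genes called higher stayed at 5 to 8 in 12 alternatives, and was 3 (HSP101, HSP70-4 and HSP90.1) without an experiment term. Over all genes the 12 alternatives called 295 to 479 and the fit without an experiment term 83, against 326 in the main fit. The 8 came with the replicate block in experiment 2 only, which called 479 over all genes. HSP101, HSP70-4 and HSP90.1 were called in all of these fits. Leaving out each library in turn gave 6 to 7 over both experiments (289 to 327 over all genes, against 326 with every library). It gave 5 to 7 in experiment 1 (104 to 170, against 135) and 0 to 2 in experiment 2 (192 to 509, against 288). For the difference it gave 0 to 1 (10 to 23, against 15), where HSP90.1 was called without myb67-labelled replicate 6 of experiment 1 (edgeR adjusted p = 0.030). The 2 in experiment 2 came without WT replicate 1, which added HSP70-2. In experiment 2 the count was 2 with the replicate block in both experiments, 3 with the replicate block in experiment 2 only, 0 without the 3 libraries of fewest counts and 0 with that experiment fitted on its own. Over all genes these 4 fits called 980, 1050, 259 and 136, against 288. The difference was called for 3 genes with either replicate block (516 and 573 over all genes, against 15) and for 1 with DESeq2 (43). The cause was not tested. No sign turned where a gene was called in the main fit or in the alternative. Signs of genes called in neither were not compared. The shallowest library, WT replicate 1 of experiment 1, held 3705515 counts. That library's CPM of HSP17.6A stands for 1 count. Counting error alone sets the limits of counts given here.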
